A study of Mus musculus with 2 samples.

Results

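The genes described here are those of the cytosolic ribosome, defined by their symbols, with earlier results of these data known. They are Rpl or Rps with a number, and the stalk genes *Rplp0*, *Rplp1* and *Rplp2*, without the *Rps6k* kinases. The rule found 83 genes of 21935 in the files (95 of 27405 RefSeq transcript entries), 51 named for the large subunit and 32 for the small subunit. Expression was measured by RNA-Seq of polyadenylated RNA from mouse R1 ES cells (a line of embryonic stem cells) 72 h after LIF, the cytokine that holds such cells in self-renewal, was left out of the medium. 1 library came from shKdm5b ES cells, which carry a lentiviral short hairpin RNA (shRNA) against *Kdm5b*, a histone H3 lysine 4 demethylase, and 1 from shLuc ES cells, which carry an shRNA against luciferase. Both lines were selected with puromycin after infection, both were grown on irradiated mouse embryonic fibroblasts with LIF beforehand, and differentiation is described in low attachment dishes, where ES cells form 3D aggregates, or on gelatin, without saying which was used for these libraries. The label "shKdm5b" names 1 transduced population, so the hairpin, the infection, the culture and the library cannot be told apart. With 1 library per condition no difference has a replicate check and no test between the conditions was possible.

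Cytosolic ribosomal proteins, together with ribosomal RNA, make up the particle that translates every cellular mRNA. The small subunit decodes the mRNA and the large subunit joins amino acids, while the stalk proteins on the large subunit recruit the elongation factors. Their mRNAs are among the most abundant in growing cells, and most begin with a short pyrimidine tract at the cap (the TOP motif), through which mTORC1 and LARP1 set their translation together. Most of these genes also have many processed pseudogenes, intronless copies elsewhere in the genome, and a few have an expressed paralog, often with a tissue-restricted pattern. Several house small nucleolar RNAs (snoRNAs), which guide modification of ribosomal RNA, in their introns.

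The values are RPKM, reads scaled to transcript length and to the number of aligned reads. In each pair of RPKM values or read counts the shLuc library comes first and the shKdm5b library second. There were 78172698 and 72702698 aligned reads of 50 bases. For *Kdm5b*, the gene aimed at, RPKM was 104 and 3.01. All 10 ES cell marker genes examined were above 1 RPKM in both libraries. By more than 1.5-fold 1 was higher in shKdm5b ES cells, 2 were lower and 7 lay between. Their median log2 ratio was -0.15, against -0.21 over all genes. *Pou5f1*, a core pluripotency factor, was the lowest of them by this ratio, at 619 and 182, and *Dppa5a* was the 1 higher, at 1096 and 1651. Of 10 fibroblast markers 8 were below 1 RPKM in both libraries, the collagen gene *Col1a1* at 0.474 and 0.395. *Twist1*, a transcription factor of mesenchyme, was at 1.95 and 7.05 (log2 ratio 1.80), the 1 marker of at least 1 RPKM in either library that was past 1.5-fold, and the summed RPKM of that list was 7.35 and 13.5. Log2 ratios are of shKdm5b over shLuc, with 0.1 added to each RPKM, and a gene was counted as higher or lower when it differed by more than 1.5-fold and had an RPKM above 1 in at least 1 library. Beside a log2 ratio, the range in parentheses is its 95% counting interval (exact Clopper-Pearson). Such intervals cover counting error only and not the spread between cultures. Fewer cells of a type and less RNA per cell cannot be told apart in such libraries.

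The ribosomal protein genes as a group took a larger share of the shKdm5b library. Their 83 entries held 1253514 reads, 1.60% of the shLuc library, and 1716988 reads, 2.36% of the shKdm5b library, and the sum of their RPKM was 20057 and 32066. All 83 genes had an RPKM above 1 in at least 1 library. Of these, 51 genes were higher by more than 1.5-fold in shKdm5b ES cells, 8 were lower and 24 lay between, with a median log2 ratio of 0.87. Over all 11804 genes above that RPKM, 16.3% were higher and 32% were lower, with a median log2 ratio of -0.21. Without regard to the fold, 67 of the 83 genes had a log2 ratio above 0 and 16 below. Genes above 1 RPKM in both libraries had a median log2 ratio of -0.17, and once the libraries were scaled so that this median was 0, the 83 genes had a median of 1.03 and 13 of them lay below 0.

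Short and abundant transcripts of other kinds were also mostly higher in shKdm5b ES cells. Ribosomal protein transcripts are short, with a median of 710 bases (285 to 5134), against 2232 bases for the other genes. Among other genes of up to 1000 bases, 36.2% were higher and 24.3% lower. Among the 227 other genes of up to 1000 bases with a mean RPKM of at least 50, 61.2% were higher and 3.08% lower, with a median log2 ratio of 0.83. The share of ribosomal protein genes that were higher, 61.4%, lay at that background, and the share that were lower, 9.64%, was above it (6.58% of the 76 genes without the paralogs). The range between the quartiles of the log2 ratio was 0.94 for the ribosomal protein genes and 0.90 for those 227 genes.

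By length, 27 of the 33 ribosomal protein genes under 600 bases were higher and 1 was lower, with a median log2 ratio of 1.07. The 82 other genes of that length and a mean RPKM of at least 50 had a median of 0.96. From 600 to under 1000 bases, 15 of 32 ribosomal protein genes were higher and 4 were lower, with a median of 0.42, below the 0.69 of 145 other genes. Among transcripts of at least 1000 bases, the 18 ribosomal protein genes had a median of 0.59 and the 910 other genes a median of 0.09. The log2 ratio also moved with the GC content of the transcript. In the third of the ribosomal protein genes lowest in GC content (40.6% to 49.2%) the median was 1.06 and 23 of 28 were higher, and in the third with the highest (53.1% to 60.8%) it was 0.44, with 13 of 28 higher and 6 lower. The other genes of these GC ranges, of any length, had medians of 0.13 and -0.66. Those of up to 1000 bases had medians of 0.74 and -0.04. Across the 83 genes the Pearson correlation of the log2 ratio with GC content was -0.42 (Spearman -0.40) and with length -0.15 (Spearman -0.42), given as descriptions of genes that share both libraries. Across the 11452 other genes with a GC value, the correlation with GC content was -0.50 (Spearman -0.54). When lowess curves of the log2 ratio on GC content and length, fitted on the other genes, were taken out, the median of the ribosomal protein genes was 0.46, with 30 higher and 8 lower, and with the length curve alone it was 0.51, with 36 higher and 9 lower. The part of length and GC content in the difference between the libraries was not tested.

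**Figure D1:**
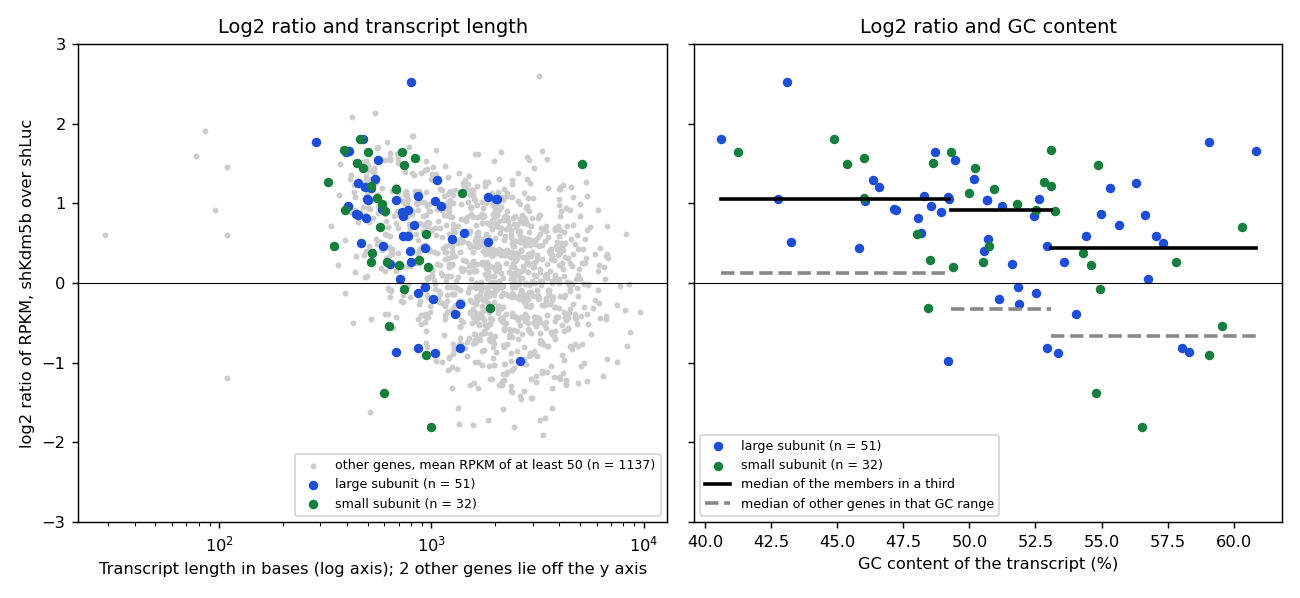
The log2 ratio of shKdm5b to shLuc against transcript length (left, log axis) and GC content (right, percent), with 1 point per gene, blue for the 51 large subunit genes and green for the 32 small subunit genes. Grey points are the other genes with a mean RPKM of at least 50, of which 2 lie off the axis. Solid bars give the medians of the ribosomal protein genes split into 3 parts by GC content, from 1.06 to 0.44. Dashed bars give those of all other genes above 1 RPKM, of any length, in the same GC range, from 0.13 to -0.66.

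Taken by subunit, the large and the small subunit differed little. Of 51 large subunit genes 32 were higher and 5 were lower, with a median log2 ratio of 0.86. Of 32 small subunit genes 19 were higher and 3 were lower, with a median of 0.91. The difference of the medians, -0.05, turned to 0.27 among the 50 genes of at least 600 bases. The small subunit genes were more spread, with an upper quartile of 1.45 against 1.07 and a lower quartile of 0.25 against 0.33. Summed over its genes, the RPKM of the large subunit was 11032 and 17030, and that of the small subunit 9025 and 15036.

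**Figure D2:**
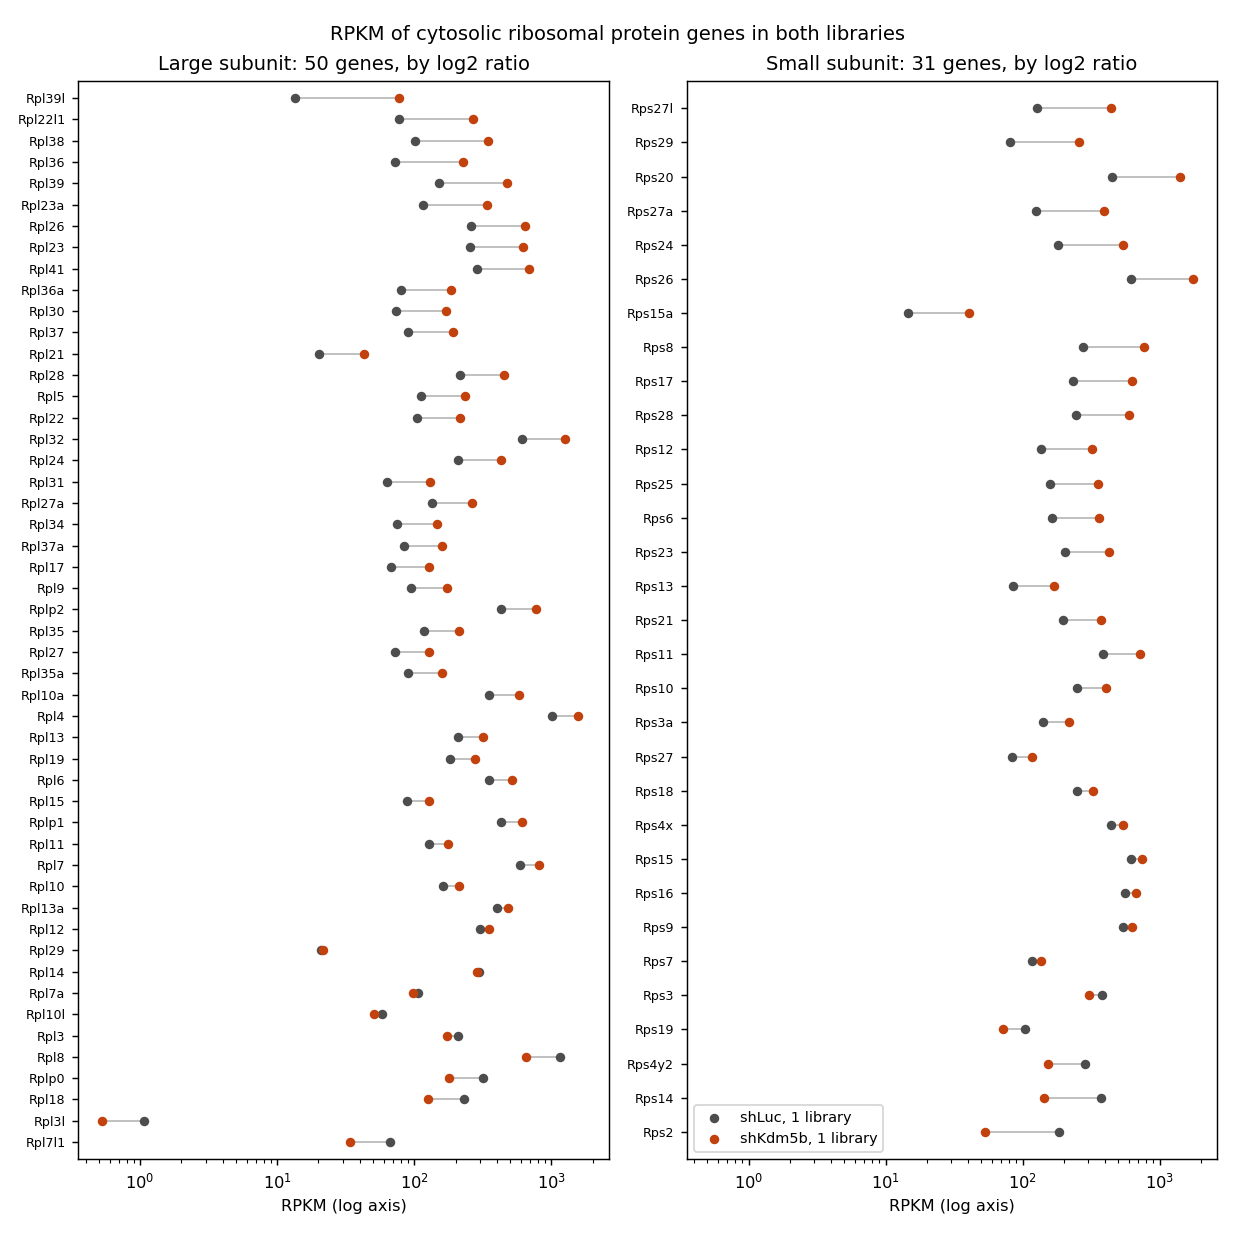
RPKM (log axis) of 81 of the 83 ribosomal protein genes in the shLuc library (dark) and the shKdm5b library (orange), 1 library each, joined by a line, with 50 large subunit genes on the left and 31 small subunit genes on the right in the order of the log2 ratio. The orange point lies to the right for 67 genes and to the left for 14, and the widest gaps are those of *Rpl39l* (13.5 and 77.8) and *Rps2* (185 and 53.1).

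The levels covered a wide range although most of the proteins are present in equal numbers in a ribosome. In shLuc ES cells they ran from 1.06 RPKM for *Rpl3l* to 1149 RPKM for *Rpl8*, and in shKdm5b ES cells from 0.53 RPKM for *Rpl3l* to 1759 RPKM for *Rps26*. *Rpl4*, *Rps26*, *Rpl32* and *Rps20* were among the 5 genes with the highest mean RPKM, and 27 of the 83 genes were among the 100 genes with the highest RPKM in shLuc ES cells and 35 in shKdm5b ES cells. The order of the genes was partly kept, with a Spearman correlation of 0.79 between the libraries across the 83 genes. *Rpl4*, a large subunit protein that lines the exit tunnel, had 1014 and 1571 RPKM, a log2 ratio of 0.63 (0.62 to 0.64). Outside the paralogs, the lowest levels were those of *Rpl29* (20.8 and 21.6 RPKM), *Rps15a* (14.5 and 40.8 RPKM) and *Rpl21* (20.2 and 42.8 RPKM), and the last of these and *Rps15a* have long entries of 1854 and 5134 bases, over which the reads are divided.

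These levels depend on how reads were placed. None of the aligned reads was split over an intron, so reads across a splice junction were not used. A median of 28.7% of the 50-base words of a ribosomal protein transcript lie across a junction. A median of 48.5% of the 50-base words of a ribosomal protein transcript recur in another annotated gene, mostly a pseudogene, and for 39 of the 83 genes the share was over 50%. The study's methods describe, for its ChIP-Seq reads, an alignment that leaves out reads with several genomic positions, and do not say whether the RNA-Seq reads were treated alike. *Rps27* had 2278 and 2921 reads although none of its 50-base words lies within an exon and is free of copies in other annotated genes. Across the 83 genes the log2 ratio and this share had a Pearson correlation of 0.03 (Spearman -0.02). The 14 genes with at most 20% of their words elsewhere had a median of 0.28, with 7 higher and 4 lower, the 30 genes with 20% to 50% had 0.92 and the 39 genes above 50% had 0.82. The words and the GC content are those of a GENCODE transcript, which for some genes is much longer than the counted entry. For *Rps20*, 1 of the 14 genes, it has 3706 bases against 502, so the place of such genes in these groups is uncertain. For *Rps27*, 98.6% of the words recur elsewhere, and for *Rpl10*, *Rpl9* and *Rpl3* the shares are 92.1%, 93.3% and 85.6%, so their levels are uncertain. The same holds for *Rps6* (84.6%) and *Rpl36* (81.1%), which are described below. The entries of *Rpl34* and of its pseudogene *Rpl34-ps1* differed by 1 read in each library (2377 against 2378 reads, and 4306 against 4307), so the same reads can be counted under both. For the 9 genes with several entries, the log2 ratio differed between entries by at most 0.13, in *Rpl34*.

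Among the 76 genes that are not paralogs, the highest log2 ratios belonged to genes with short transcripts, of 285 to 502 bases for the first 5. *Rpl38*, a large subunit protein known for its effect on translation of *Hox* mRNAs in the embryo, had 101 and 346 RPKM, a log2 ratio of 1.77 (1.70 to 1.84). *Rps29*, a zinc-binding protein of the small subunit head, had 81.3 and 259 RPKM, a log2 ratio of 1.67 (1.60 to 1.74). *Rpl36* had 72.2 and 227 RPKM, *Rps20* 451 and 1415 RPKM, and *Rpl39*, a short protein of the exit tunnel, 152 and 477 RPKM, each with a log2 ratio of 1.65. These 5 genes were 3.14-fold to 3.41-fold higher in shKdm5b ES cells. *Rps27a*, which is made as a fusion with ubiquitin, had 126 and 395 RPKM (log2 ratio 1.65). *Rpl41*, the smallest of the ribosomal proteins, had 288 and 687 RPKM (2.38-fold higher), and *Rps25*, needed by viral internal ribosome entry sites, had 157 and 358 RPKM (log2 ratio 1.18).

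Several genes have known roles in signalling or in regulation beyond the ribosome. *Rps6*, the small subunit protein phosphorylated by the S6 kinases, had 165 and 361 RPKM, a log2 ratio of 1.13 (1.11 to 1.16). *Rpl5* and *Rpl11*, which with 5S ribosomal RNA bind and hold back *Mdm2*, had different log2 ratios, 1.06 (1.03 to 1.08) for *Rpl5*, from 113 and 234 RPKM, and 0.46 (0.41 to 0.51) for *Rpl11*, from 129 and 177 RPKM. *Rpl10*, which joins the large subunit last, had 161 and 212 RPKM, within 1.5-fold. *Rps3*, a protein at the mRNA entry, was lower without passing 1.5-fold, with 381 and 305 RPKM and a log2 ratio of -0.32 (-0.34 to -0.30). The stalk genes did not move alike: the anchor *Rplp0* was lower, with 317 and 180.3 RPKM (log2 ratio -0.81, but -0.37 and within 1.5-fold with a curve on GC content taken out), whereas *Rplp1* had 433 and 611 RPKM (log2 ratio 0.50) and *Rplp2* 427 and 779 RPKM (log2 ratio 0.87).

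Of the 16 genes below a log2 ratio of 0, 8 were lower by more than 1.5-fold. *Rps2*, which lies near the mRNA entry of the small subunit, was the lowest, with 185 and 53.1 RPKM and a log2 ratio of -1.80 (-1.85 to -1.75). It lies on chromosome 17 from 24718116 to 24721929 in GENCODE M21 (GRCm38), has 6 exons, and 79% of its 50-base words recur in 71 other genes, all annotated as pseudogenes. *Rps14*, a protein of the small subunit platform, had 374 and 143 RPKM, a log2 ratio of -1.38 (-1.42 to -1.34). *Rpl18* had 230.1 and 126 RPKM (log2 ratio -0.87) and *Rpl8*, which contacts the peptidyl transferase center, 1149 and 656 RPKM (log2 ratio -0.81). With *Rplp0* these are 5 genes of the ribosome proper, and the remaining 3, *Rpl7l1*, *Rps4y2* and *Rpl3l*, are paralogs. *Rps2* and *Rps14* stayed lower under every scaling run, and with the GC and length curves taken out they were at -1.61 and -1.60. With the GC curve alone taken out, 3 genes were lower by more than 1.5-fold, *Rps2* (-1.12), *Rps14* (-0.81) and *Rpl7l1* (-0.82), and the calls of *Rplp0* (-0.37), *Rpl18* (-0.09), *Rpl8* (-0.04), *Rps4y2* (-0.08) and *Rpl3l* (-0.41) were lost.

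The other 8 genes below 0 were within 1.5-fold. *Rps19* had 105 and 71.8 RPKM, a log2 ratio of -0.54, and a named pseudogene of it, *Rps19-ps3*, had 72.9 and 51.4 RPKM. *Rps3* is described above, and *Rpl3* had 209 and 174 RPKM, a log2 ratio of -0.26. *Rpl10l* is given with the paralogs. *Rpl7a* (-0.13) and *Rpl14* (297 and 286 RPKM, -0.05) lay so close to 0 that each was above 0 when the libraries were scaled to the same median log2 ratio. With the GC curve alone taken out, *Rps19* (0.30), *Rpl3* (0.10) and *Rpl10l* (0.11) were above 0 as well, and *Rps3* was at -0.22.

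The coding sequences of the paralogs show how far reads can tell them from the parent. Those of *Rpl39l* and *Rps27l* are shown with their parents because they had the largest differences from them in the positive direction. Sequences are from the GENCODE M21 transcripts (GRCm38), and capitals mark the bases that differ between the members of a pair.
Rpl39l: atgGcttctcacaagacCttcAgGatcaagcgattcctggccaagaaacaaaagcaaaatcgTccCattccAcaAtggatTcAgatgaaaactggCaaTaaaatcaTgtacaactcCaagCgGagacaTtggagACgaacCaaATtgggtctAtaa
Rpl39: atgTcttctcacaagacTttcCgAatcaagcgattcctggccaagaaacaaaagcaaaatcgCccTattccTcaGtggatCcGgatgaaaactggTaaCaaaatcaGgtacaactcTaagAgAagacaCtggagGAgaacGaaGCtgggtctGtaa
Rps27l: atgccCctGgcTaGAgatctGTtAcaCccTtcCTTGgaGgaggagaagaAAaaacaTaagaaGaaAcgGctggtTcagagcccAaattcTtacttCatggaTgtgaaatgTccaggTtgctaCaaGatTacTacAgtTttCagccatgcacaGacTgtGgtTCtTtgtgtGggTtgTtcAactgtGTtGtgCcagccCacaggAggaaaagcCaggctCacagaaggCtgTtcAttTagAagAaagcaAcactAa
Rps27: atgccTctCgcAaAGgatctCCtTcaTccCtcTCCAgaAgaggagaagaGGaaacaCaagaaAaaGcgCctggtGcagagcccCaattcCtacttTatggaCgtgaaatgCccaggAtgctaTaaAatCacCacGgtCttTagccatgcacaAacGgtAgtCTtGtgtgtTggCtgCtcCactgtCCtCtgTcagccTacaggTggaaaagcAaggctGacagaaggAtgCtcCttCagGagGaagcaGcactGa
*Rpl39l* and *Rpl39* differ at 23 of 156 bases and *Rps27l* and *Rps27* at 61 of 255. Between each of the 7 paralogs and its parent no 50-base word was identical over the whole transcripts. The closest words differed by 2 bases for *Rpl10l* and for *Rps4y2*, and by 3 bases (*Rpl39l*) to 14 bases (*Rpl7l1*) for the others, so a read that matches exactly belongs to 1 member of a pair.

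Of the 7 paralogs 3 were higher, 3 were lower and 1 was within 1.5-fold, and in no pair did the paralog and the parent have the same log2 ratio within counting error. *Rpl39l*, on chromosome 16 from 10170226 to 10174911 with 3 exons and known for its high level in male germ cells, had the highest log2 ratio of the 83 genes. It had 849 and 4551 reads, or 13.5 and 77.8 RPKM, a log2 ratio of 2.52 (2.42 to 2.63), and none of its 50-base words recurs in another gene. *Rpl39* itself was higher too, by 1.65, and the difference between the log2 ratios was 0.87, from 0.72 to 1.03 when the bounds of both intervals are set against each other. Its share of the summed RPKM of the pair was 8.16% in shLuc ES cells and 14.03% in shKdm5b ES cells. *Rpl39l* kept a log2 ratio of 1.57 or more when those curves were taken out, and its difference from *Rpl39* was 0.68 with both curves taken out. With the GC curve alone taken out the 2 genes lay closer, *Rpl39l* at 2.22 and *Rpl39* at 1.76.

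*Rps27l*, a paralog known as a target of p53, lies on chromosome 9 from 66946086 to 66949516. It had 128 and 445 RPKM, a log2 ratio of 1.80 (1.75 to 1.85), and its share of the pair went from 60.2% to 79.3%. The difference from *Rps27*, 1.34, was 0.88 with the GC curve and 0.75 with both curves taken out. *Rps27* had 84.2 and 116 RPKM, a log2 ratio of 0.46 (0.38 to 0.54), but nearly all its words recur elsewhere, so the share of the pair is uncertain. *Rpl22l1*, on chromosome 3 from 28805436 to 28807424, had 76.8 and 268 RPKM, a log2 ratio of 1.80 (1.74 to 1.87). Its parent *Rpl22*, an RNA-binding protein that represses *Rpl22l1* in other cells, had 104 and 217 RPKM, a log2 ratio of 1.06 (1.03 to 1.08). The *Rpl22l1* entry is 477 bases long and that of *Rpl22* 2040 bases, and the GC contents of their GENCODE transcripts are 40.6% and 49.2%. The difference of this pair, 0.75, became 0.01 with the length curve taken out and -0.70 with both curves taken out, so its direction was not stable.

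The remaining paralogs were below their parents. *Rpl7l1*, whose name follows its likeness to *Rpl7*, had 66.4 and 33.8 RPKM, a log2 ratio of -0.97 (-1.02 to -0.93), while *Rpl7* had 595 and 809.7 RPKM, a log2 ratio of 0.44. The difference, -1.42, was -0.58 with both curves taken out. *Rps4y2*, an intronless entry that the current annotation calls *Rps4l*, had 286 and 153 RPKM (log2 ratio -0.90) beside 439.6 and 536 RPKM for the X-linked *Rps4x* (log2 ratio 0.29). The GC content of their GENCODE transcripts is 59.1% and 48.5%. The difference of -1.19 became -0.47 with the GC curve taken out, where *Rps4y2* itself was at -0.08, and -0.42 with both curves taken out. *Rpl10l*, an intronless copy of the X-linked *Rpl10* known from male germ cells, had 57.9 and 50.5 RPKM, a log2 ratio of -0.20 (-0.26 to -0.14), and *Rpl10* 0.40. *Rpl3l*, a paralog known from striated muscle, was at the detection limit used here, with 1.06 RPKM (86 reads) and 0.53 RPKM (40 reads), a log2 ratio of -0.88 (-1.58 to -0.44).

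**Figure D3:**
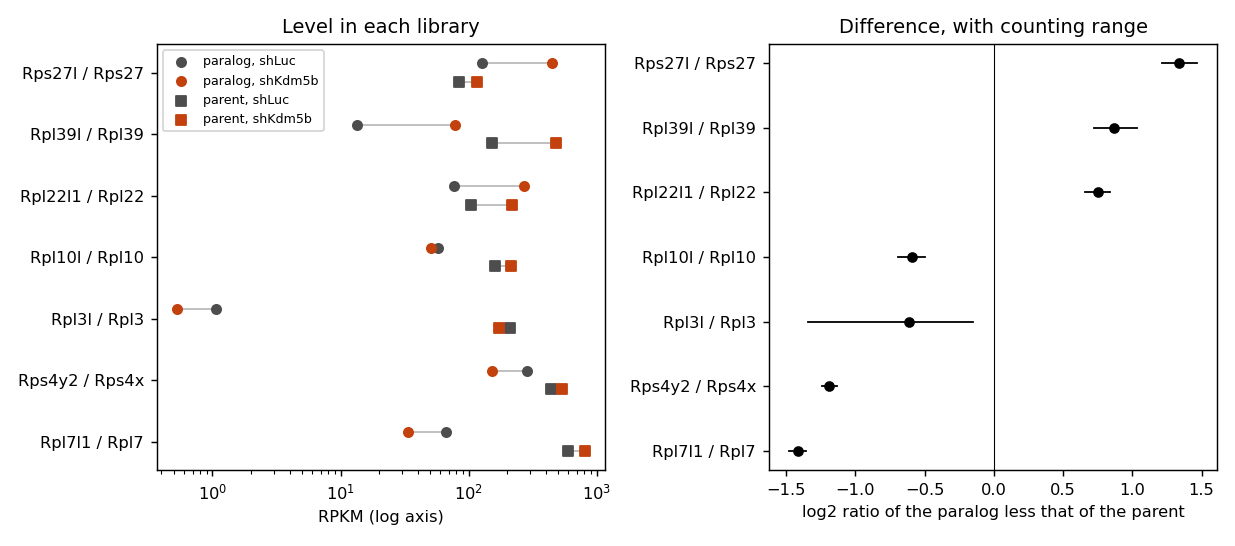
Left, RPKM (log axis) of the 7 paralogs (circles) and their parent genes (squares) in the shLuc library (dark) and the shKdm5b library (orange). Right, the log2 ratio of the paralog less that of the parent, with lines from the outer bounds of both 95% counting intervals. 3 pairs lie above 0 (*Rps27l*, *Rpl39l*, *Rpl22l1*) and 4 below, down to -1.42 for *Rpl7l1*.

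Promoters were examined for what the genes share beyond their names. RefSeq promoter windows (GRCm38.p6, from 250 bases before to 50 bases after the start) were found for 61 of the 83 genes. A run of at least 8 pyrimidines that reached within 15 bases of the annotated start on either side was present in 28 of them (45.9%), against 17.4% of all 27025 promoters. Such a run can lie upstream of the start, as in *Rps25*, or within the transcript, as in *Rpl11*. A TOP motif begins at the cap, so these shares are not a count of TOP mRNAs. Windows of 30 bases from 10 bases before the start are shown for 8 of the 16 genes whose run begins between 10 bases before and 3 bases after the start and lies wholly within the window, the 4 with the highest and the 4 with the lowest log2 ratio, chosen after their values were seen. Capitals mark the pyrimidine run.
Rpl22l1: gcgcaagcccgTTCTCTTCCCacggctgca
Rpl38: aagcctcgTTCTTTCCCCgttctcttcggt
Rps26: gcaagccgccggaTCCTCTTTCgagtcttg
Rps6: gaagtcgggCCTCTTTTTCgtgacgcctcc
Rpl13a: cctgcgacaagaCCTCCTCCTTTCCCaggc
Rps9: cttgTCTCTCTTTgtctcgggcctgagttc
Rpl14: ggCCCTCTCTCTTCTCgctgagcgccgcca
Rpl18: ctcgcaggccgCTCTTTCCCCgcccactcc
The run was present at both ends of the order, with 10 bases in *Rpl22l1* (log2 ratio 1.80) and in *Rpl18* (log2 ratio -0.87). The 28 genes with a run had a median log2 ratio of 0.91, with 19 higher and 1 lower, and the 33 genes with a shorter run 0.82, with 19 higher and 4 lower. Across the 61 genes the length of the run and the log2 ratio had a Pearson correlation of 0.08 (Spearman 0.07). The letters CCGGAAG, the core bound by Ets factors, were found on either strand in 23 of the 61 promoters (37.7%) against 9.12% of all promoters, and these 23 genes had a median log2 ratio of 0.97 against 0.68 for the other 38. AAGATGGCG, as bound by Yy1, was found in 4 promoters (6.56%, against 1.49%), TTCCGGC, which can overlap the reverse complement of CCGGAAG, in 11 (18%, against 4.91%) and TATAAA in 6 (9.84%, against 14.2%).

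Small RNA entries within the same genes had a lower log2 ratio than the host in 29 of 31 cases. Of 63 small RNAs that GENCODE places within a ribosomal protein gene on its strand, 31 had an entry in the files, in 22 hosts. These entries are 45 to 148 bases long and together held 1714 and 853 reads, a log2 ratio of -0.90 (-1.02 to -0.78). Of the 31 entries 26 had a log2 ratio below 0, and 20 of these lie in hosts above 0. Many had few reads, and of the 23 entries with at least 20 reads in either library 19 were below 0. *Snora64*, within *Rps2*, had 109 and 4 reads. *Snord33*, 1 of 4 in *Rpl13a*, had 115 and 9 reads, whereas *Rpl13a* itself was slightly higher (402 and 481 RPKM). *Snora69*, within *Rpl39*, had 20 and 0 reads, and *Snora65*, within *Rpl12*, was among the 5 entries in the positive direction with 207 and 275 reads. The 75 other snoRNA entries, taken by their symbols and 44 to 6160 bases long, held 2861 and 1786 reads, a log2 ratio of -0.58 (-0.66 to -0.49). Of these entries 55 were below 0 and 13 above. Of the 39 among them with at least 20 reads in either library, 30 were below 0. The 656 other small RNA entries (these 75 snoRNA entries, scaRNAs and microRNAs) held 15497 and 14104 reads, a log2 ratio of -0.03 (-0.06 to 0.00). By entry, 194 of these 656 were below 0 and 42 above. Of the 74 among them with at least 20 reads in either library, 54 were below 0. The median log2 ratio of those 74 was -0.78, against -1.39 for the 23 entries within ribosomal protein genes. Mature snoRNAs lack a poly(A) tail, 3 of the 31 entries are shorter than a read, and reads of unspliced host RNA over the same bases cannot be told apart from them.

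Other genes of protein synthesis were compared with the same rule, by which 16.3% of all genes above 1 RPKM were higher and 32% were lower. Ribosomal protein genes whose symbols fall outside the rule had 1 of 5 higher and 1 lower. *Rpl36al* had 135 and 307 RPKM (log2 ratio 1.19), *Fau* 200.4 and 287 (0.52), *Gnb2l1* (the ribosome-bound scaffold now called *Rack1*) 1054 and 960.3 (-0.13) and *Rpsa*, a small subunit protein also known as the laminin receptor, 255 and 123 (-1.05). Of 73 mitochondrial ribosomal protein genes 21 were higher and 9 were lower, with a median log2 ratio of 0.15 against 0.87 for the cytosolic genes. Their range ran from *Mrps33* (9.52 and 29.4 RPKM, log2 ratio 1.62) and *Mrpl33* (1.58) to *Mrps11* (-0.96) and *Mrpl19* (8.17 and 3.38 RPKM, -1.25). Their transcripts are longer, with a median of 1043 bases. Of these 73 genes 30 were higher and 2 lower with TMM scaling (median 0.37), and 6 were higher and 7 lower with both curves taken out (median 0.08).

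A list of 14 elongation and termination factors and related genes had 4 higher and 2 lower, with a median of 0.25. *Tpt1* was the highest of them (306 and 795 RPKM, log2 ratio 1.38), followed by *Eef1e1* (1.01), related genes that are not themselves elongation or termination factors. *Eef2*, the translocation factor, was the lowest (1140.3 and 509.8 RPKM, -1.16), after *Eif5a* (-0.94). Of 38 initiation factor genes 11 were higher and 9 were lower, with a median of -0.04, and with both curves taken out 4 of 37 were higher and 2 were lower, with a median of 0.02. Among them *Eif3e* (86.4 and 194 RPKM, 1.17) and *Eif3m* (1.15), subunits of the factor that binds the small subunit, were the highest, and *Eif4h* (-1.10) and the cap complex scaffold *Eif4g1* (123 and 52.3 RPKM, -1.24) the lowest.

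Of 49 ribosome assembly and ribosomal DNA transcription genes 9 were higher and 15 were lower, with a median of -0.21, the same as over all genes, and with both curves taken out 3 were higher and 8 were lower. The chaperone *Npm1* (900.4 and 1942 RPKM, log2 ratio 1.11) and the polymerase subunit *Polr1d* (1.15) were the highest, and the largest RNA polymerase I subunit *Polr1a* (20.5 and 6.65 RPKM, -1.61) and its initiation factor *Taf1c* (8.06 and 2.08 RPKM, -1.90) the lowest. Of 15 LARP, mTORC1 pathway and *Rps6k* kinase genes 3 were higher (20%, against 16.3% over all genes) and 6 were lower (40%, against 32%). Their median was -0.47, and genes that activate and genes that restrain mTORC1 are pooled in it. With both curves taken out 2 were higher and 1 was lower, with a median of -0.17. The mTORC1 activator *Rheb* had 38.1 and 81.9 RPKM (log2 ratio 1.10) and *Larp1b* 0.91, and *Tsc2*, which restrains *Rheb*, had 16.1 and 6.48 RPKM (-1.30) and *Rps6kb2*, an S6 kinase, 4.16 and 1.32 RPKM (-1.59). The transcripts of this list are long, with a median of 3359 bases and a GC content of 53.7%.

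**Figure D4:**
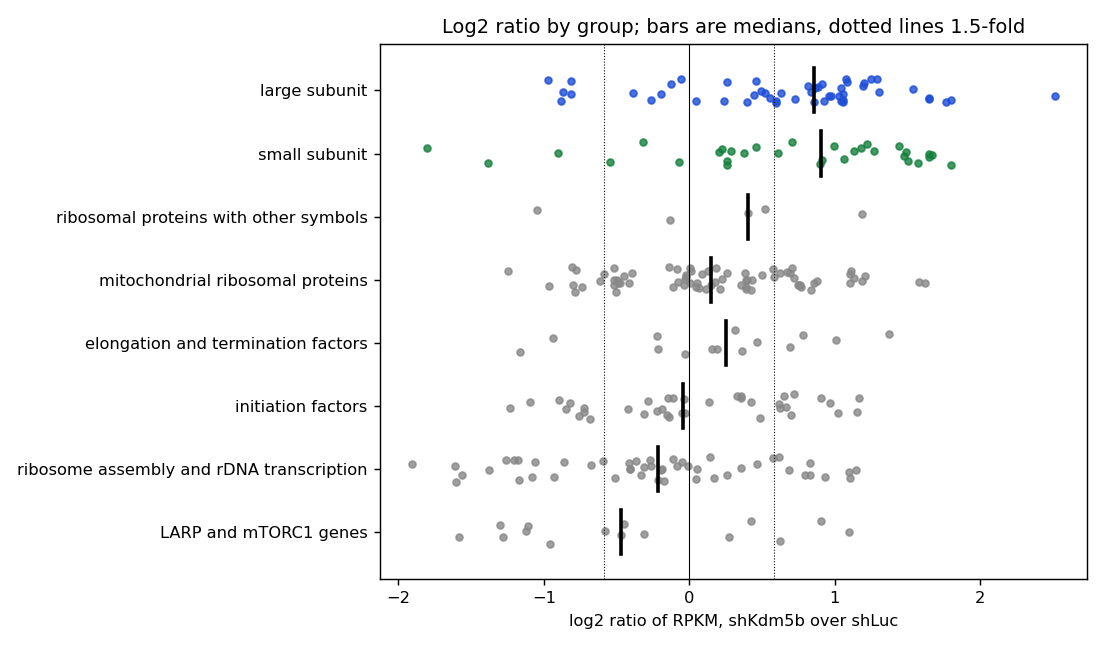
The log2 ratio of shKdm5b to shLuc for each gene (points) above 1 RPKM in at least 1 library, by group, with black bars at the medians and dotted lines at 1.5-fold in either direction. The medians of the large and the small subunit genes, 0.86 and 0.91, lie to the right of those of the other groups, which run from 0.41 (5 ribosomal proteins with other symbols) to -0.47 (LARP and mTORC1 genes).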

How the data were processed

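For each RefSeq transcript entry, the authors deposited a read count, the transcript length and an RPKM value, which the count, the length and the number of aligned reads give back. The submitters' processing notes name CASAVA 1.0, Bowtie 0.12.7 and the build mm8; the counting program and annotation version are not given in the sources used here. The deposited alignments were used for the numbers of reads, read length and strand. Whether counting used strand is not given there either, so antisense reads cannot be told apart.

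Where a symbol had several entries, that of highest mean RPKM stood for it. A pseudocount of 0.1 was used. Genes named are *Kdm5b*, the paralogs and their parents, the 5 highest and 5 lowest log2 ratios, the 5 highest mean RPKM, all members below 0, the stalk genes, 10 genes of known role, and up to 4 genes of each list; others were named after their values were seen, and 3 genes that this rule includes are not reported here. The members and lists were chosen with earlier results of these data known. Correlations and promoter matches are descriptions. GC content (97.7% of genes above the RPKM minimum matched) and coordinates came from GENCODE M21, GRCm38, which is not the build of the alignments. The matched GENCODE transcript nearest in length to the entry was used, and for some genes it is much longer than the entry.

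Alternatives were other pseudocounts, thresholds and scalings (edgeR 4.0.16 TMM, DESeq2 1.42.0 size factors), edgeR's exact test at assumed dispersions of 0 and 0.04 with an FDR below 0.001, and lowess curves (fraction 0.3, statsmodels 0.14.6) of the log2 ratio against length and GC content, fitted on the other genes. edgeR's quasi-likelihood test needs replicates and was not used. The fold calls, the length curve and the counting intervals were tested on simulated reads. The GC curves and the other steps were not. Calculations used R 4.3.3, SciPy 1.17.1, NumPy 2.4.6, pandas 2.3.3 and Python 3.11.15.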

Additional observations from a re-analysis of the deposited data

How the results depend on the processing

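No paired analysis was possible because there was only 1 library of either kind. The median log2 ratio of the ribosomal protein genes, 0.87, was 1.03 when scaled to a common median, 1.09 with TMM, 1.10 with DESeq2 size factors, 0.92 when scaled to the reads on other genes, 0.51 with the length curve taken out, 0.46 with the GC and length curves taken out, 1.14 with the GC curve alone taken out (chosen after seeing the data) and 0.54 for genes of at least 600 bases. It was above 0 in every alternative run. The number past 1.5-fold, 59 (51 higher), was 38 (30 higher) with both curves out, 35 (33 higher) at 2-fold, 31 (24 higher) of 50 genes of at least 600 bases and 10, all higher, with the exact test at a dispersion of 0.04; the other alternatives stayed within 1.5 times of 59. The large less small subunit difference of -0.05 was 0.039 with the length curve out, 0.034 with both curves out, 0.27 at 600 bases or more and -0.21 with the GC curve out. Over all genes, 5702 (1921 higher and 3781 lower) became 3656 (1794 and 1862) with both curves out, 2842 (1275 and 1567) above 10 RPKM, 2688 (740 and 1948) at 2-fold and 284 (111 and 173) at a dispersion of 0.04, and the split was 2606 and 3026 with a common median, 2864 and 2758 with TMM, 2945 and 2697 with DESeq2 size factors, 2690 and 2736 with the length curve out and 2187 and 2010 with the GC curve out. The median log2 ratio turned positive for ES cell markers (0.013 with a common median, 0.067 with TMM, 0.083 with DESeq2, 0.0022 with the length curve out, 0.072 with the GC curve out), for ribosome assembly genes (0.0076 with TMM, 0.024 with DESeq2, 0.014 with the length curve out) and for initiation factors (0.12 with a common median, 0.18 with TMM, 0.19 with DESeq2, 0.0087 with reads on other genes, 0.16 and 0.25 with the length or GC curve out, and 0.017 with both), and negative, -0.070, for ribosomal proteins with other symbols with the length curve out. *Rpl22l1* less *Rpl22* was -0.70 with both curves out. The cause of these shifts was not tested beyond the construction of each alternative. Counting error is small at this depth, with a median of 10453 and 15242 reads per ribosomal protein gene, and the limit is the single library per condition.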
